A study of Mus musculus with 8 samples.

Results

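The fused-type S100 genes measured here were 7 of the 55418 genes in the deposited files, chosen by symbol alone: Flg (filaggrin), Flg2 (filaggrin 2), Hrnr (hornerin), Rptn (repetin), Tchh (trichohyalin), Tchhl1 (trichohyalin-like 1) and Crnn (cornulin). Fused-type S100 proteins carry a calcium-binding S100 domain at the amino end, joined to a long stretch that is often made of repeats. They are made late in keratinocyte differentiation, bind keratin filaments or join the cornified envelope, and are worked on by transglutaminases and by peptidylarginine deiminases, which turn arginine into citrulline. Profilaggrin is cut into filaggrin, which packs keratin filaments in the outer epidermis, and trichohyalin hardens the inner root sheath and the medulla of the hair.

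Skin came from mice with a spontaneous mutation, called hairloss in the labels, and from wildtype mice, at postnatal days 0, 16, 19 and 28. Each genotype and age had 1 library of total RNA, 8 in all. No source used here gives the mutated gene, the strain, the sex or the number of animals in a library. With 1 library per group, a genotype difference at a single age has no replicate check and describes those libraries alone.

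The libraries held skin RNA, with 6 basal keratinocyte markers, Krt5 and Krt14 among them, summing to 1630 to 7402 FPKM in hairloss and 1272 to 3004 FPKM in wildtype libraries (FPKM is a level scaled for transcript length and library depth). From the lowest values of single-transcript genes, depth was estimated at 31600000 to 43700000 fragments per library. A count of 3 fragments then corresponds to 0.0033 to 0.0510 FPKM over the 7 genes, which covers counting error only, and each of their levels above 0 was higher than that. The FPKM of all genes summed to 2501650 in the wildtype library of day 16, the highest total of the 8. Xist, the RNA that coats the inactive X, differed between the genotypes at days 19 and 28, with 0.115 and 50.2 FPKM in hairloss, against 12.4 and 0.166 FPKM in wildtype skin. Xist was at 76.1 FPKM in hairloss, against 51.3 FPKM in wildtype skin at day 0. Ddx3y, a Y-linked gene, was listed at 0 in hairloss skin of days 0 and 28, against 16.3 and 16.5 FPKM in wildtype skin. At day 19 Ddx3y was at 19.4 FPKM in hairloss, against 15.8 FPKM in wildtype skin. The wildtype libraries of days 0 and 19 thus held both RNAs. The genotypes differed in Ddx3y at day 0, in Xist at day 19 and in both at day 28. Genotype and sex therefore cannot be told apart at these ages. Of 8 skeletal muscle markers, 8 were at least 2-fold higher in hairloss at day 28, while 4 were lower at day 16 and 5 at day 19. Of 6 fibroblast and 6 adipocyte markers, 3 and 4 were lower at day 19. Over all genes compared, 7.39% were lower at day 16, 5.76% were lower at day 19 and 5.6% were higher at day 28. The part of sex and of tissue make-up in the results on the 7 genes was not tested.

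The 7 genes lie on the plus strand of a single stretch of chromosome 3, in the epidermal differentiation complex, in the order Crnn, Flg2, Flg, Hrnr, Rptn, Tchh and Tchhl1 (GENCODE M21, build mm10). Crnn lies at chr3:93144787-93149819, Flg2 at chr3:93197278-93221391 and Flg at chr3:93273523-93293686. Hrnr lies at chr3:93319749-93333570, Rptn at chr3:93393699-93399442, Tchh at chr3:93442330-93449077 and Tchhl1 at chr3:93468754-93471980. GENCODE marks Flg and Flg2 as touched by errors of the reference genome. Reads from the repeats of Flg, Flg2 and Hrnr can match several places, and how the authors counted them is not known here, so levels of these genes are less certain. A ribosomal pseudogene lies inside Flg, and the unclassified gene Gm37857 overlaps the start of Rptn.

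The region before the start site of 5 of the 7 genes holds TGANTCA, the pattern of an AP-1 type site, and these 5 are shown because they include both epidermal and hair members. Each stretch runs from 140 to 16 bases before the RefSeq start site (GRCm38.p6, plus strand), with TGANTCA and the TATA-box letters TATAAA in capitals.
Flg, chr3:93273406-93273530: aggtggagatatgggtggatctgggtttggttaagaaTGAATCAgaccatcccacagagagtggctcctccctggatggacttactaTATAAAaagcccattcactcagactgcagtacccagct
Flg2, chr3:93197133-93197257: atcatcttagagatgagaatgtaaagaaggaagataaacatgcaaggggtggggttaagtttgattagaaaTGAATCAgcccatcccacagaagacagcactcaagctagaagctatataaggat
Rptn, chr3:93393559-93393683: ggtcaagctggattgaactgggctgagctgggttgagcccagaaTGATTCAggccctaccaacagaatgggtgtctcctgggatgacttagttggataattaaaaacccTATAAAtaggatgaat
Crnn, chr3:93144649-93144773: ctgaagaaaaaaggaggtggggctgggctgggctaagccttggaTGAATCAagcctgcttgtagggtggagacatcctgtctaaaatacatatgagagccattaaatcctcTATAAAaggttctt
Tchhl1, chr3:93468614-93468738: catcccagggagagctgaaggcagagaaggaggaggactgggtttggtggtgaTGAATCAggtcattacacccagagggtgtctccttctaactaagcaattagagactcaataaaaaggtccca
The AP-1 type pattern starts 103 bases before the start site in Flg, 69 in Flg2, 96 in Rptn, 96 in Crnn and 87 in Tchhl1. The TATA-box letters start 53, 31 and 29 bases before it in Flg, Rptn and Crnn, and 31 bases before it in Hrnr. The RefSeq start site of Flg lies after its GENCODE start at chr3:93273523, so the distances in Flg are shorter from the GENCODE start. Both patterns were searched on both strands of 300 bases, and they do not overlap. Of 27025 promoters of this length, 1 per gene, 7.93% hold the AP-1 type pattern and 14.2% hold the TATA-box letters. The AP-1 type pattern was chosen after the sequences were seen. A match describes the letters and does not show that a factor binds.

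In the wildtype library of day 16, Hrnr, Rptn and Tchh were listed at exactly 0. These are the family members covered by Gm37245, an annotated noncoding gene on the minus strand at chr3:93306468-93465359, which was itself at 0 in all 8 libraries. Of the 10 genes in this span, 6 were above 0 in some library. In the library pair of day 16, 0 of these 6 were at 0 in hairloss and 6 of 6 in wildtype skin. In each of the other libraries 0 to 2 of them were at 0. Next to the span on either side, Flg and Tchhl1 were measured in the same wildtype library at 73.2 and 394 FPKM. A value of 0 can be a failed estimate, so no fold is given for Hrnr, Rptn and Tchh at day 16, and the cause of the zeros was not tested.

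**Figure D1:**
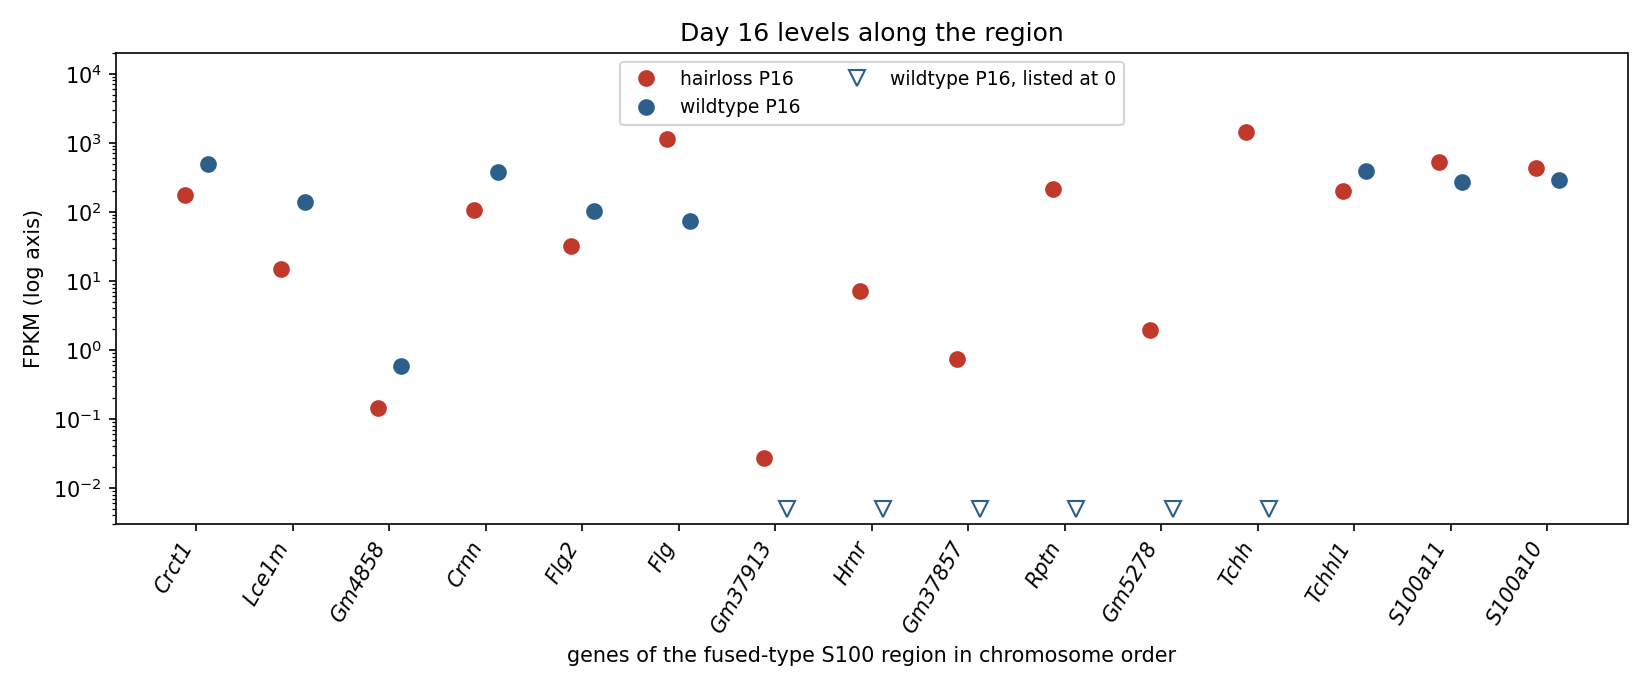
FPKM at day 16 (log axis) of genes of the region in chromosome order, 1 hairloss and 1 wildtype library, with open triangles for values listed at 0. The 6 wildtype zeros form 1 unbroken run from Gm37913 to Tchh, while Flg and Tchhl1 beside it are measured.

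Filaggrin transcripts were abundant in hairloss skin at every age and in wildtype skin at birth, and 9.90 to 15.6 times higher in hairloss than in wildtype skin later. Flg was measured at 1743, 1139, 1361 and 1932 FPKM in hairloss libraries of days 0, 16, 19 and 28, against 1847, 73.2, 89.1 and 195 FPKM in wildtype libraries. The hairloss levels spanned 1.70-fold over the 4 ages and the wildtype levels 25.2-fold. The genotypes were within 2-fold at day 0, and the FPKM ratio of hairloss over wildtype was 15.6, 15.3 and 9.90 at days 16, 19 and 28. The wildtype library of day 0 lay within the range of the hairloss libraries, and the wildtype libraries of the later days lay under it.

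Krt1, which with Krt10 forms the keratin pair of the suprabasal epidermis, had a like pattern. Its levels were 3249, 1914, 2541 and 2623 FPKM in hairloss libraries, against 2155, 76.4, 218 and 82.1 FPKM in wildtype libraries. Krt10 was at least 2-fold higher in hairloss at days 16 and 28 and within 2-fold at days 0 and 19. Within a library, Flg relative to Krt1 ran from 0.536 to 0.736 in hairloss and from 0.408 to 2.37 in wildtype skin, a narrower range than that of Flg itself. Flg relative to Krt10 was 0.497, 0.664, 0.664 and 0.594 in hairloss libraries by age, against 0.906, 0.144, 0.0805 and 0.480 in wildtype libraries, so it was lower in hairloss at day 0 and higher at the later ages. Such ratios of per-length levels do not depend on how libraries were scaled to each other. At days 16, 19 and 28 the 6 basal markers summed to 7402, 7252 and 3598 FPKM in hairloss libraries. The wildtype sums were 3004, 2756 and 1784 FPKM. At least 2-fold higher in hairloss were 1 of 6 at day 16, 2 at day 19 and 4 at day 28. At day 19, 1 was lower. Over all genes compared, 5.34%, 6.53% and 5.6% were higher at these ages, and 5.76% were lower at day 19. In bulk skin, fewer cells of a type and less RNA per cell cannot be told apart.

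Filaggrin 2, a relative of filaggrin in the outer epidermis, had the opposite order at days 16 and 19. Flg2 was measured at 75.1, 32.0, 26.9 and 110 FPKM in hairloss libraries of days 0, 16, 19 and 28, against 78.2, 102, 212 and 66.3 FPKM in wildtype libraries. It was 3.19 and 7.90 times lower in hairloss by FPKM at days 16 and 19, and within 2-fold at days 0 and 28. The wildtype maximum fell on day 19, the age at which the hairloss level was lowest.

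The balance between the filaggrins therefore differed widely between libraries. Flg over Flg2 was 23.2, 35.7, 50.6 and 17.6 in hairloss skin by age, against 23.6, 0.719, 0.420 and 2.94 in wildtype skin. In wildtype skin of days 16 and 19 Flg2 was the more abundant of the pair per length, and in the other 6 libraries Flg was. Krt77, a suprabasal keratin, was also lower in hairloss at days 16 and 19, at 38.5 and 10.9 FPKM in hairloss, against 530 and 1109 FPKM in wildtype skin. Loricrin (Lor), an abundant cornified envelope protein, was at 40.9 and 72.5 FPKM in hairloss, against 77.4 and 156 FPKM in wildtype skin at these ages. Lor was within 2-fold at day 16. Of 12 cornified envelope genes, 1 was lower at day 19, Lor, and 2 were higher, where 5.76% and 6.53% of all genes were. At day 28 Krt77 was at 481 FPKM in hairloss and 373 FPKM in wildtype skin, within 2-fold like Flg2.

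Hornerin, a repeat protein of the cornified envelope, was highest at birth in both genotypes. Hrnr was measured at 69.9, 7.10, 12.4 and 29.7 FPKM in hairloss libraries, against 65.5, 0, 17.0 and 6.44 FPKM in wildtype libraries. The genotypes were within 2-fold at days 0 and 19, and Hrnr was 4.61 times higher in hairloss by FPKM at day 28. In both genotypes every later library lay under the day 0 library.

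Repetin, a cornified envelope precursor, was the gene of the family that differed at birth. Rptn was measured at 154, 214, 343 and 262 FPKM in hairloss libraries, against 15.7, 0, 41.5 and 13.2 FPKM in wildtype libraries. It was 9.82, 8.27 and 19.8 times higher in hairloss by FPKM at days 0, 19 and 28. The lowest hairloss library lay above the highest wildtype library, also with the 0 of day 16 left out. Rptn was the 1 of the 7 genes whose genotypes did not overlap, where 2.35% of 18724 genes had every hairloss library above every wildtype library and 2.51% had every one under. Rptn relative to Flg was 0.0881, 0.252 and 0.136 in hairloss, against 0.00847, 0.465 and 0.0678 in wildtype skin at days 0, 19 and 28.

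Of the wound-type keratins Krt6a, Krt6b, Krt16 and Krt17, made by activated keratinocytes, Krt6b and Krt16 were higher in hairloss at all 4 ages, Krt6a at days 0, 16 and 19, and Krt17 at days 16 and 19. A size rule was used for calls, which asks for a 2-fold difference on the log2(FPKM + 1) scale and for 1 FPKM or more in 1 of the libraries compared. By it 3 of 4 were higher in hairloss at day 0, 4 of 4 at days 16 and 19, and 2 of 4 at day 28. Over all genes compared, 1.49%, 5.34%, 6.53% and 5.6% were higher at these ages. Krt6b was at 101, 570, 833 and 79.2 FPKM in hairloss libraries, against 5.48, 0.229, 0.236 and 0.170 FPKM in wildtype libraries. Grhl3, a transcription factor of barrier formation, was the 1 gene of 18 epidermal transcription factors past 2-fold at day 0, at 15.7 FPKM in hairloss, against 6.07 FPKM in wildtype skin. It was also past 2-fold at each later age. Of 8 neutrophil markers, 7 were higher at day 16 and 5 at day 19, with sums of 31.3 and 22.0 FPKM in hairloss, against 1.44 and 3.64 FPKM in wildtype skin. Their part in the levels of Flg and Rptn was not tested.

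**Figure D2:**
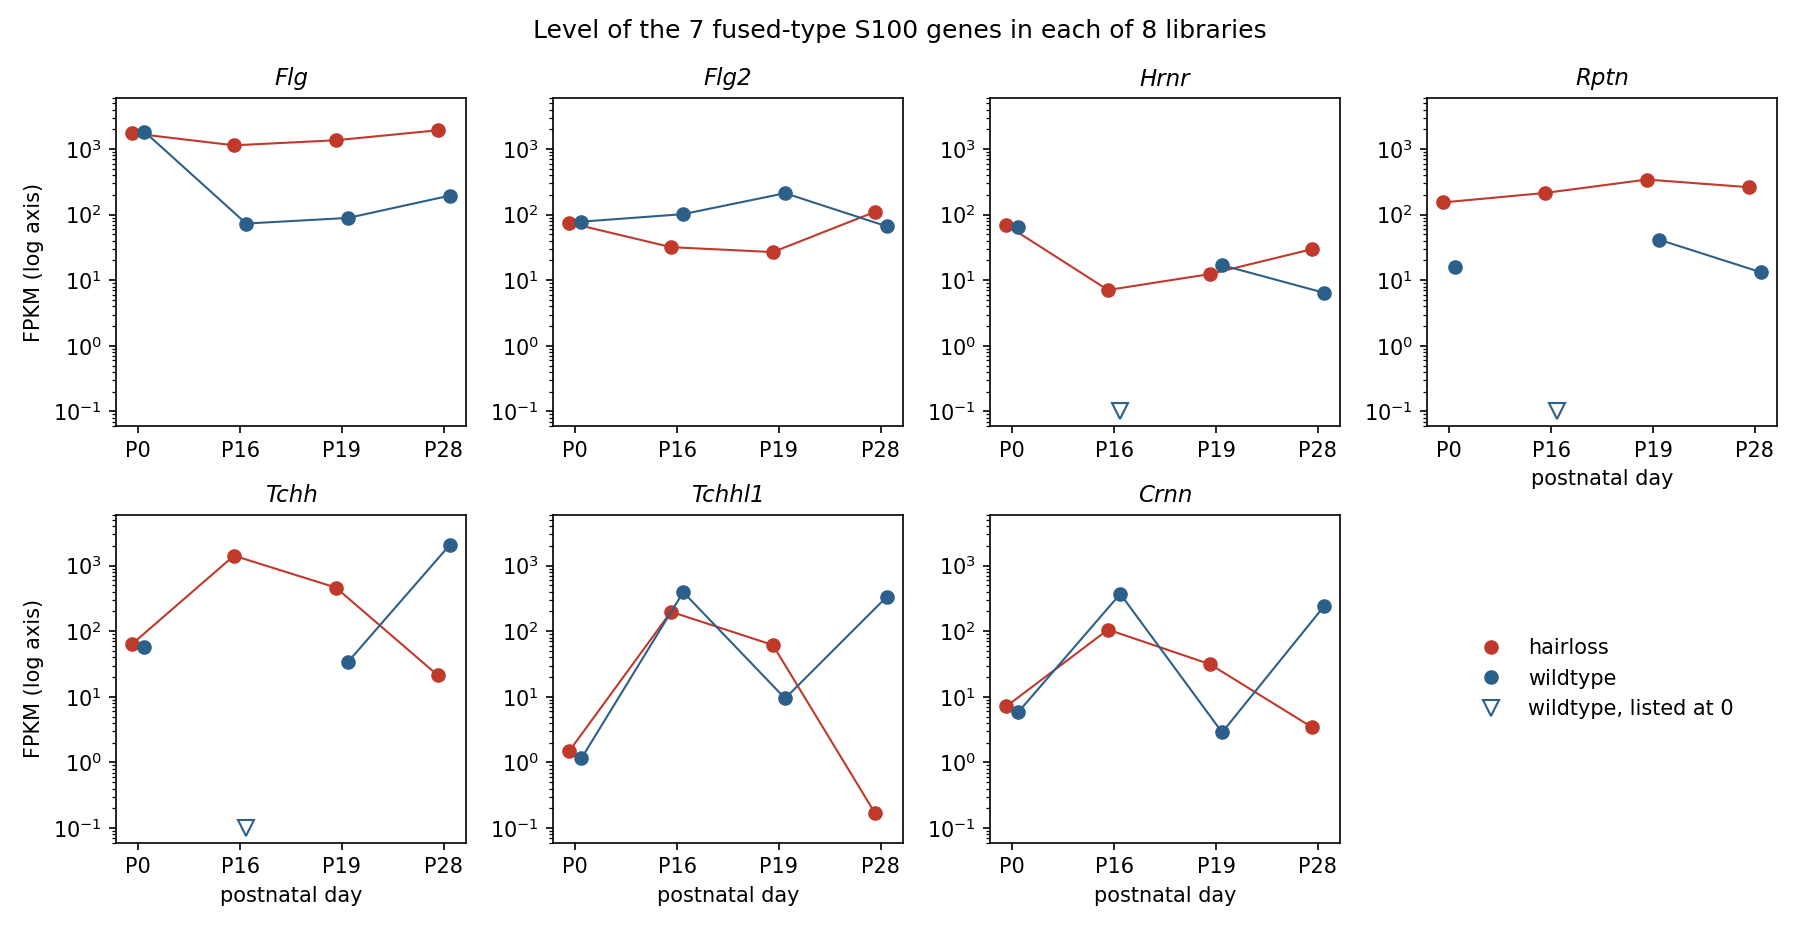
FPKM (log axis) of each of the 7 genes by postnatal day, 1 point per library, hairloss in red and wildtype in blue, with open triangles for values listed at 0. Flg and Rptn are high in all 4 hairloss libraries, while Tchh, Tchhl1 and Crnn are highest at day 16 and lowest at day 28 in hairloss skin.

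The genes grouped here as hair members, Tchh, Tchhl1 and Crnn, were far lower in hairloss than in wildtype skin at day 28, after the opposite order at day 19. The group, with Crnn in it, was drawn with these levels known, so their shared order is not separate support for it. Trichohyalin (Tchh) was measured at 63.8, 1419, 464 and 21.4 FPKM in hairloss libraries of days 0, 16, 19 and 28, against 56.6, 0, 34.1 and 2076 FPKM in wildtype libraries. The genotypes were within 2-fold at day 0. By FPKM, Tchh was 13.6 times higher in hairloss at day 19 and 97.1 times lower in hairloss at day 28.

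Tchhl1, a close relative of trichohyalin, was measured at 1.48, 198, 61.7 and 0.172 FPKM in hairloss libraries, against 1.15, 394, 9.46 and 337 FPKM in wildtype libraries. By FPKM it was 1.99 times lower in hairloss at day 16, 6.53 times higher at day 19 and 1961 times lower at day 28. The day 28 hairloss level was above the 3-fragment limit of 0.0332 FPKM for this transcript and library.

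Cornulin (Crnn), known from squamous epithelia of the mouth and gullet in humans, was measured at 7.14, 106, 31.4 and 3.46 FPKM in hairloss libraries, against 5.88, 371, 2.87 and 240 FPKM in wildtype libraries. By FPKM it was 3.51 times lower in hairloss at day 16, 10.9 times higher at day 19 and 69.3 times lower at day 28. For Crnn and Tchhl1 alike, the genotype with the higher level changed at each step after day 0.

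Keratins listed as mucosal, other than Krt78, were low in every library. Krt4, Krt13 and Krt76 reached 1.498 FPKM at most, and Krt24 reached 2.55 FPKM, in the wildtype library of day 19. The 5 mucosal keratins summed to 8.64 to 36.1 FPKM in hairloss and 6.22 to 19.7 FPKM in wildtype libraries, most of it Krt78. At day 28 Krt78 was at 35.0 FPKM in hairloss, against 5.61 FPKM in wildtype skin.

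Keratins of the hair follicle had the order of the hair members at days 19 and 28. The 7 inner root sheath keratins summed to 320, 4758, 1446 and 247 FPKM in hairloss libraries by age, against 260, 8885, 77.6 and 6848 FPKM in wildtype libraries. By the size rule 5 of 7 were lower in hairloss at day 16, 7 of 7 were higher at day 19, and 7 of 7 were lower at day 28. Of 12 hair shaft keratins measured, from a list of 13, 10 were lower at day 16, 10 higher at day 19 and 12 lower at day 28. Over all genes compared, 7.39% were lower at day 16, 6.53% higher at day 19 and 6.42% lower at day 28. How far the amount of hair follicle tissue sets the levels of Tchh, Tchhl1 and Crnn was not tested.

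Within libraries, Tchh kept close to Krt27, a keratin of the inner root sheath. Tchh over Krt27 was 1.80, 1.40, 1.46 and 1.03 in hairloss skin of days 0, 16, 19 and 28, against 1.56, 1.34 and 1.37 in wildtype skin of days 0, 19 and 28. Krt27 itself ran from 20.9 to 1514 FPKM in those 7 libraries, and was at 2054 FPKM in the wildtype library of day 16, in which Tchh was listed at 0. Against Krt71, another inner root sheath keratin, the ratio was 0.272 in the hairloss library of day 28 and 0.598 to 1.19 in the other 6 libraries.

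Crnn kept close to Padi3, a deiminase of the hair follicle that acts on trichohyalin. Crnn over Padi3 was 2.03, 1.66, 1.53 and 2.06 in hairloss skin by age, against 1.82, 1.81, 2.45 and 1.98 in wildtype skin. Padi3 itself ran from 1.17 to 206 FPKM. Crnn over Tchhl1 varied more, from 0.509 to 20.2 in hairloss and from 0.304 to 5.12 in wildtype libraries, with the highest value in the hairloss library of day 28. These pairs were picked after their values were seen.

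**Figure D3:**
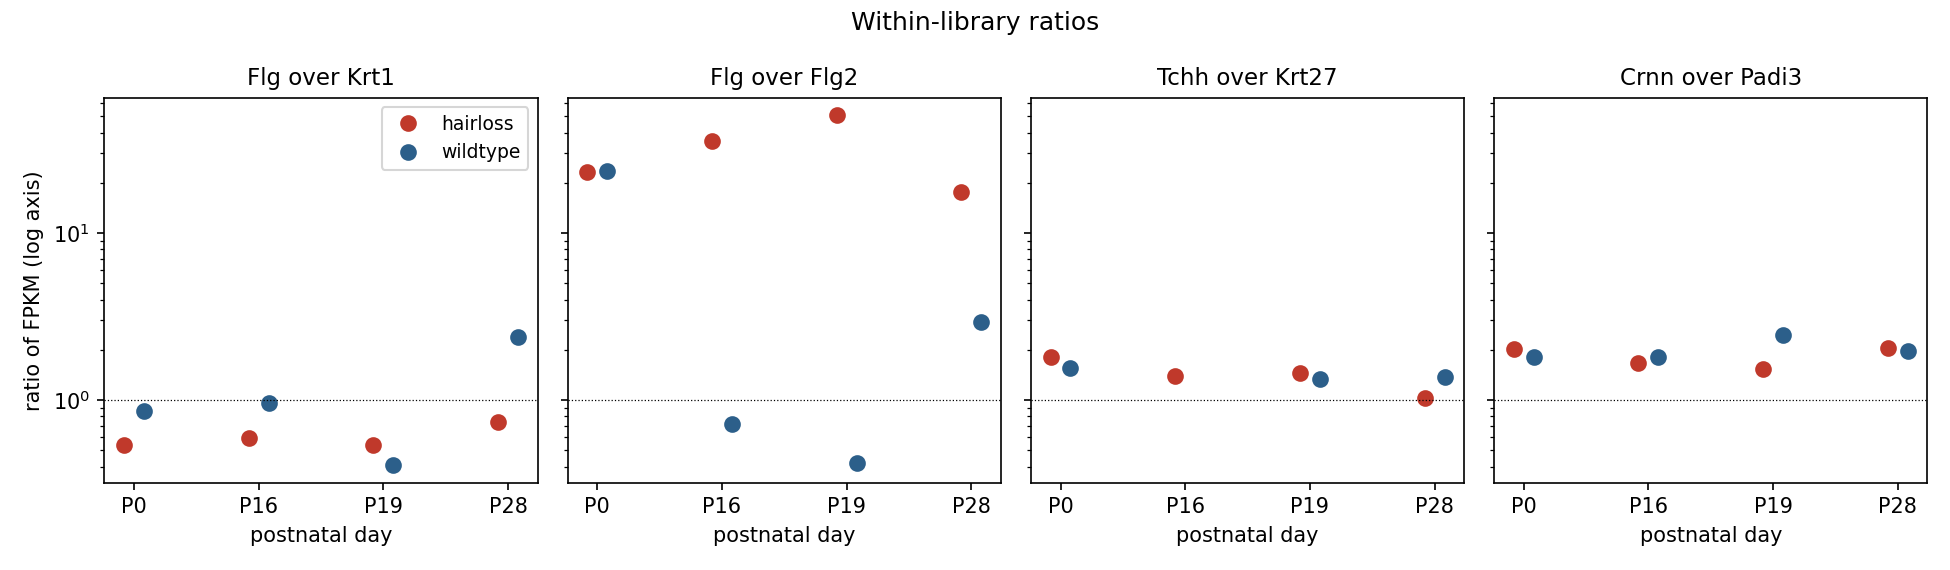
Ratio of FPKM of 2 genes within each library (log axis, dotted line at 1) by postnatal day, hairloss in red and wildtype in blue. Tchh over Krt27 stays between 1.03 and 1.80 and Crnn over Padi3 between 1.53 and 2.45, while Flg over Flg2 runs from 0.420 to 50.6.

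Likeness to each member was taken as Pearson r of log2(FPKM + 1), a description over 8 libraries, or over 7 where the library with a 0 was left out, all of which share the 4 ages. The 5 genes most like Crnn were Padi3 (0.999), Capn8 (0.998), Cpm (0.992), S100a3 (0.992) and Prss53 (0.991). Those most like Tchh were Tgm6 (0.996), Krt27 (0.996), Eif1ax (0.992), Capn8 (0.992) and Padi3 (0.991). Those most like Tchhl1 were all genes of keratin-associated proteins, namely Krtap3-3 (0.996), Krtap3-1 (0.995), Krtap7-1 (0.994), Krtap1-5 (0.994) and Krtap8-1 (0.991). Flg was most like Arcn1 (0.984), Lce1g (0.977), Lce3c (0.974), Sdhd (0.967) and Stfa3 (0.965), of which Lce1g and Lce3c encode late cornified envelope proteins. Flg2 was most like Serpinb7 (0.969), Sema3d (0.968), Gnpat (0.967), 1110051M20Rik (0.963) and Cdh4 (0.960). Hrnr was most like Col27a1 (0.996), Bcl2 (0.988), Pdgfa (0.988), Igsf10 (0.985) and Col6a3 (0.984). Rptn was most like Rela (0.986), Ggct (0.971), 6430548M08Rik (0.969), Sowahc (0.968) and Bag3 (0.965). With 8574 to 8577 candidates and so few libraries, a high r can pair unlike sizes of change, and Arcn1 itself ran only from 44.8 to 70.2 FPKM.

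Summed over the family, transcripts were mostly of the epidermal members at birth and differed in make-up between the genotypes later. Flg, Flg2, Hrnr and Rptn together held 96.6%, 44.7%, 75.8% and 98.9% of the summed FPKM of the 7 genes in hairloss libraries by age. In wildtype libraries they held 96.9% at day 0, 88.6% at day 19 and 9.58% at day 28. The wildtype share at day 16, 18.6%, rests on 4 genes, since 3 were listed at 0. Tchh, Tchhl1 and Crnn held 1.06% in the hairloss library of day 28, against 90.4% in the wildtype library.

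**Figure D4:**
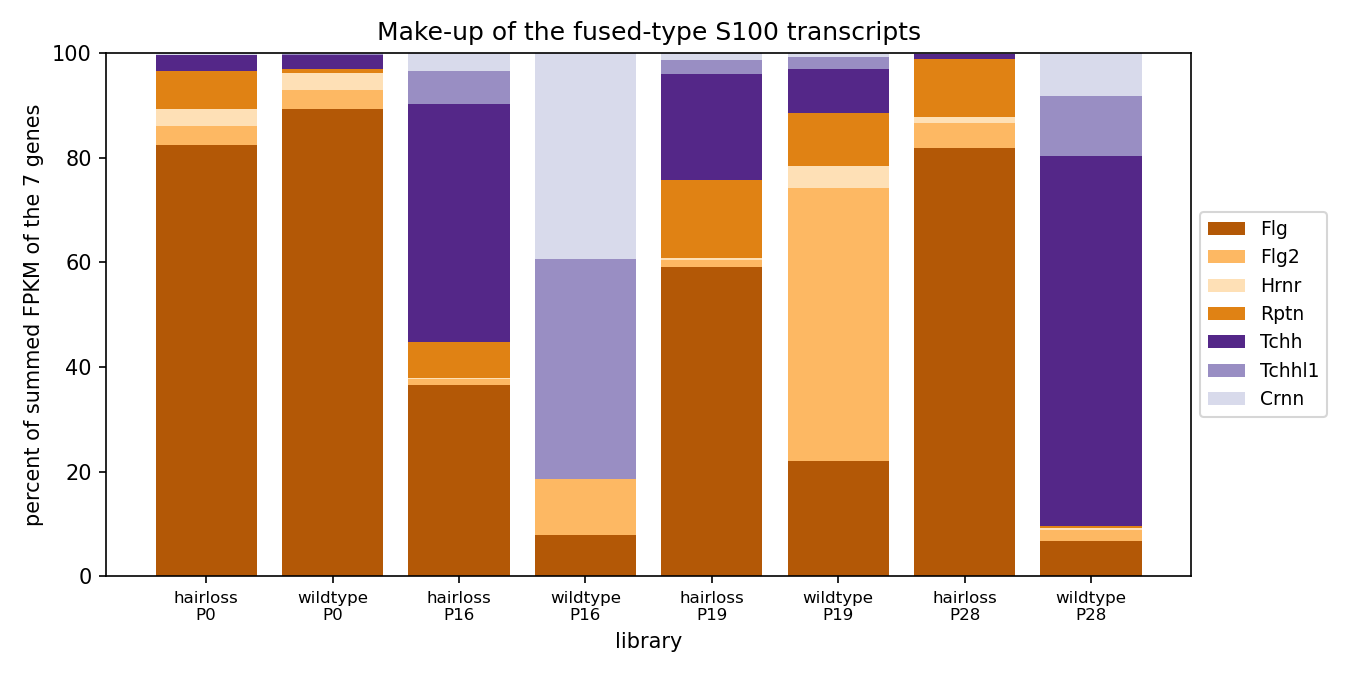
Percent of the summed FPKM of the 7 genes held by each, 1 bar per library, hairloss left of wildtype at each day. Orange epidermal genes fill nearly all of the bar at day 0 in both genotypes and at day 28 in hairloss skin, and purple hair genes fill 90.4% in wildtype skin of day 28.

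Counted by the size rule, 1 of the 7 genes was higher in hairloss at day 0, Rptn, and 0 were lower, where 1.49% of all 16685 genes compared were higher and 1.58% lower. At day 16 there were 4 higher, Flg and the 3 genes listed at 0 in wildtype skin, and 2 lower, Flg2 and Crnn, where 5.34% of 16186 genes were higher and 7.39% lower. At day 19 there were 5 higher, Flg, Rptn, Tchh, Tchhl1 and Crnn, and 1 lower, Flg2, where 6.53% of 16656 genes were higher and 5.76% lower. At day 28 there were 3 higher, Flg, Hrnr and Rptn, and 3 lower, Tchh, Tchhl1 and Crnn, where 5.6% of 16021 genes were higher and 6.42% lower. The median hairloss minus wildtype difference of the 7 genes on the log2(FPKM + 1) scale was 0.17, 3.02, 3.02 and 0.72 by age, beside medians over all genes of -0.01, -0.08, 0.00 and 0.00. The value at day 16 rests on the genes listed at 0 in wildtype skin, and over the 4 genes above 0 in both libraries the median turned to -1.32.

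**Figure D5:**
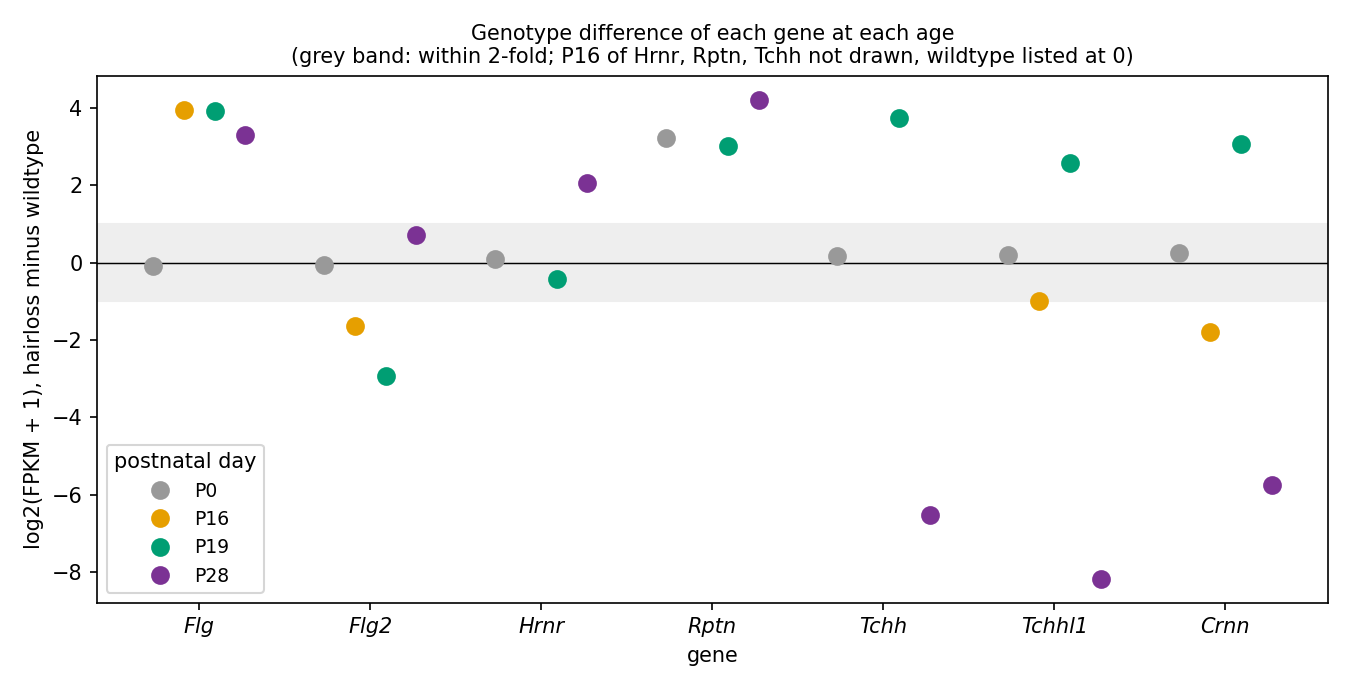
Hairloss minus wildtype difference on the log2(FPKM + 1) scale for each gene, 1 point per age, with a grey band for differences within 2-fold and without the day 16 points of Hrnr, Rptn and Tchh. Flg lies within the band at day 0 and between 3.30 and 3.94 later, while Tchh, Tchhl1 and Crnn lie above the band at day 19 and far under it at day 28.

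Between ages in hairloss skin, Tchh, Tchhl1 and Crnn were past 2-fold at every step. They were the 3 members higher at day 16 than at day 0, while Flg2 and Hrnr were lower, where 10.5% of all genes were higher and 11.4% lower. They were also the 3 members lower at day 19 than at day 16, with 0 higher, where 2.33% of all genes were higher and 2.07% lower. At day 28 they were lower again than at day 19, while Flg2 and Hrnr were higher, where 3.75% of all genes were higher and 4.5% lower. Flg and Rptn stayed within 2-fold at each of these steps.

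In wildtype skin, Crnn and Tchhl1 were higher at day 16 than at day 0 and Flg was lower, as were the 3 genes listed at 0, where 11.1% of all genes were higher and 9.53% lower. At day 19 Crnn and Tchhl1 were lower than at day 16 and Flg2 was higher, as were the same 3 genes, where 6.41% of all genes were higher and 7.63% lower. At day 28 Flg, Crnn, Tchh and Tchhl1 were higher than at day 19 and Flg2, Hrnr and Rptn lower, where 8.09% of all genes were higher and 8.78% lower. Neighbouring steps share a library, and none was tested.

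Taken over the 4 ages as pairs of equal age, the genotype difference passed the threshold in limma (adjusted p under 0.05 over 18724 genes) for 0 of the 7 genes, and for 0.0374% of all genes. At an unadjusted p under 0.05 there were 2 of 7, Flg and Rptn, where 13.4% of all genes were. Rptn was higher in hairloss at 4 of 4 ages, by 4.55 ± 0.93 on the log2(FPKM + 1) scale (SE, 4 ages; limma adjusted p = 0.322). With its 0 taken as missing the difference was 3.48 ± 0.28 over 3 ages (limma adjusted p = 0.168), and over all alternatives the adjusted p ran from 0.168 to 0.522. Flg was higher in hairloss at 3 of 4 ages, by 2.77 ± 0.76 (limma adjusted p = 0.331, from 0.0626 to 0.809 over the alternatives), and by 3.72 ± 0.24 without day 0. Flg2 was lower at 3 of 4 ages, with a difference of -0.98 ± 0.66 (limma adjusted p = 0.528), and of -0.33 without day 19.

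Of the other members, Hrnr differed by 1.18 ± 0.66 (limma adjusted p = 0.471), or by 0.57 ± 0.54 with its 0 taken as missing. Tchhl1 differed by -1.59 ± 2.0 and Crnn by -1.06 ± 1.60, and both turned positive without day 28, at 0.60 and 0.50. Tchh differed by 1.96 ± 3.06, which turned to -0.88 ± 2.39 with its 0 taken as missing. The fit has 3 residual degrees of freedom, and its error also holds any change of the genotype difference with age. The age difference over both genotypes passed for 0 of the 7 genes and for 0.315% of all genes. At an unadjusted p under 0.05 it was 1 of 7, Hrnr (limma adjusted p = 0.170), where 24.3% of all genes were. With the 0 of Hrnr taken as missing, its age difference was no longer under 0.05 (limma unadjusted p = 0.0546, adjusted p = 0.212).

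Among genes whose products act on these proteins, the profilaggrin-processing list had members past 2-fold at each age after day 0. Of the deiminases listed, Padi3 and Padi1 had the order of the hair members. Padi4 was lower in hairloss at days 16 and 28 and within 2-fold at day 19. Padi2 was within 2-fold at days 16 and 19. At day 28 Padi2 was higher, at 4.13 FPKM in hairloss, against 0.603 FPKM in wildtype skin. Of 13 profilaggrin-processing genes, 0 were past 2-fold at day 0, 1 was higher and 1 lower at day 16, 3 were higher at day 19, and 3 were higher and 2 lower at day 28 in hairloss. Over all genes compared, 5.34% were higher and 7.39% lower at day 16, and 6.53% were higher at day 19. At day 28 the shares were 5.6% higher and 6.42% lower. Casp14, a caspase that takes part in filaggrin breakdown, was at 40.0, 76.5, 112 and 103 FPKM in hairloss libraries by age, against 36.9, 12.1, 14.5 and 27.2 FPKM in wildtype libraries. St14, a membrane protease of the pathway, was lower in hairloss at day 28, at 20.7 FPKM in hairloss, against 58.6 FPKM in wildtype skin.

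Of 8 transglutaminases and peptidylarginine deiminases, 0 were past 2-fold at day 0, 3 were lower in hairloss at day 16, 3 were higher at day 19, and 5 were lower and 1 was higher at day 28. The shares over all genes, also for the cornified envelope genes below, are those given for the profilaggrin-processing list. On day 0, 1.49% of all genes were higher in hairloss and 1.58% lower. The share lower in hairloss was 5.76% for day 19. Padi3 was at 3.52, 63.6, 20.5 and 1.68 FPKM in hairloss libraries by age, against 3.24, 206, 1.17 and 121 FPKM in wildtype libraries. Padi1, another deiminase, was at 0.917, 21.6, 10.6 and 0.682 FPKM in hairloss libraries, against 0.977, 52.9, 0.676 and 31.1 FPKM in wildtype libraries. Of 12 other cornified envelope genes, 0 were past 2-fold at days 0 and 16. At day 19 Cnfn and Evpl were higher and Lor was lower in hairloss, and at day 28 Kprp and Krtdap were higher.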

How the data were processed

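Per the labels' protocols, RNA was purified on RNeasy columns and TruSeq kits were used for the libraries. The submitters' processing notes name cutadapt, Cuffdiff and build mm10. No source used here gives the aligner, the annotation or whether strand was kept. The authors deposited 1 value per Ensembl gene without naming its unit. They appear to be FPKM that the authors made with Cuffdiff, per the submitters' processing notes and the values themselves. Tests for counts were not used.

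Values were put on a log2(FPKM + 1) scale, on which folds of low genes come out too small. The size rule compared single libraries without a test. The difference over ages was fitted in limma (3.58.1, R 4.3.3) with age as a block and eBayes with trend and robust, two-sided, for genes reaching 1 FPKM in a library, with Benjamini-Hochberg adjustment. Age was tested by the moderated F of the same fit. Both tests were tried on simulated data with equal noise for every gene and no change of the genotype difference with age. In the data such change is part of the error, so the simulations do not show how the tests perform there. A 0 in 1 to 3 libraries of a gene with at least 5 FPKM in all its other libraries was treated as a suspected failed estimate. The rule also takes in the Y-linked Ddx3y, at 0 in the hairloss libraries of days 0 and 28. Depth was estimated from the value of 1 fragment in single-transcript genes over 1000 bases. Promoters come from RefSeq (GRCm38.p6), matched by symbol for 7 of 7 genes. Other steps used Python 3.11.15, numpy 2.4.6, pandas 2.3.3 and matplotlib 3.10.9.

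All 7 genes were named, with up to 4 genes of each list that differed most at an age, keratins of 3 lists, and the 5 genes of highest r among those reaching 10 FPKM. S100a11, as the nearest coding gene, and the ratio pairs were chosen after values were seen. The members and lists were chosen with earlier results of these data known. Alternatives were 2 other pseudocounts, 2 scalings, no filter, suspected failed estimates left out, eBayes without trend, each age left out and no age block.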

Additional observations from a re-analysis of the deposited data

Results flagged for a closer look

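Crnn, Tchh and Tchhl1 were at least 2-fold higher in hairloss at an age and at least 2-fold lower at another. On the log2(FPKM + 1) scale, hairloss minus wildtype, Crnn differed by -1.80 at day 16, 3.07 at day 19 and -5.75 at day 28. Tchh differed by 3.73 at day 19 and -6.54 at day 28. Tchhl1 differed by 2.58 at day 19 and -8.17 at day 28. With 1 library per genotype and age, the change of the difference between ages was not tested.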

How the results depend on the processing

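Across 6 alternatives at each age, the 156 differences of single members kept their direction and their side of 2-fold. With no filter, or with suspected failed estimates left out, a compared gene keeps its main value by construction. The agreement of those values is therefore no check. In the limma fits over ages, 80 member values of the genotype difference kept their direction and 4 changed it, and these and the 49 values of the age difference all stayed short of the adjusted threshold. Tchh turned to -0.88 with suspected failed estimates missing and to -0.88 without day 16. For Tchh both settings rest on the same pairs of libraries, so they are not separate checks. With each age left out in turn, Tchh ran from -0.88 to 4.79, Crnn from -2.44 to 0.50 and Tchhl1 from -2.98 to 0.60, the positive values of Crnn and Tchhl1 being those without day 28, the age of their largest difference. Leaving suspected failed estimates out removes Hrnr, Rptn and Tchh at every age, also at days 0, 19 and 28, where they were above 0 in both libraries. The members higher in hairloss then numbered 0, 1, 3 and 1 by age, and the lower counts follow from the removal alone. With a pseudocount of 0.1, 383 genes were higher and 500 lower at day 0, 2263 lower at day 16, 1554 lower at day 19 and 1424 higher at day 28. With a pseudocount of 5, genes higher in hairloss numbered 102, 371, 533 and 401 by age, and genes lower 111, 527, 370 and 567. Scaling without keratins and KRTAPs moved the median of all genes at day 28 to 0.11, against 0.00 as deposited. Genes past the threshold for genotype numbered 7, or 3 with a pseudocount of 5, 2 with no filter on low values, and 2 to 6 with each age left out. Genes past the threshold for age numbered 59, or 15 with no filter and 35 without trend. The labels give no replicate numbers, and pairs of equal age are the block of the fit over ages, without which 8 genes passed for genotype. With 1 library per group, the number of libraries limits the comparisons at single ages, none of which has a test.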

Other observations

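Single-domain S100 genes, which share chromosome 3 with the fused-type genes, held members of both patterns. Of 13 such genes 0 were past 2-fold at day 0, 3 were higher and 2 lower in hairloss at day 16, 5 were higher at day 19, and 3 were higher and 3 lower at day 28. Over all genes compared, 5.34% were higher and 7.39% lower at day 16, and 6.53% were higher at day 19. At day 28 the shares were 5.6% higher and 6.42% lower. S100a3, a protein of the hair cuticle, was at 17.8, 463, 191 and 7.67 FPKM in hairloss libraries by age, against 23.5, 1655, 7.93 and 1767 FPKM in wildtype libraries. S100a7a was at 1.12, 37.1, 14.8 and 0.673 FPKM in hairloss libraries, against 0.828, 104, 2.24 and 56.5 FPKM in wildtype libraries, so it was lower, higher and lower in hairloss at days 16, 19 and 28, as Crnn was. S100a8, which with S100a9 forms calprotectin and is made by neutrophils and by activated keratinocytes, was at 31.9, 1984, 3499 and 266 FPKM in hairloss libraries, against 22.7, 134, 7.64 and 44.4 FPKM in wildtype libraries. S100a11, the next coding gene after Tchhl1, was at 302, 527, 512 and 326 FPKM in hairloss libraries, against 266, 269, 267 and 186 FPKM in wildtype libraries, within 2-fold at each age.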
